A study of Macaca mulatta with 30 samples.

Results

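Long exons, those of 3000 bases or more, were followed across 30 libraries from cortical area 32 of male rhesus macaques. The exon table names each exon by chromosome, start, end and gene, and an exon was a member when its length was at least 3000 bases, its gene had at least 2 exons, and the gene value was at least 100 in at least 6 libraries. This rule took 1871 exons in 1841 genes, of 115815 exons in the 9504 genes that met the last 2 conditions and of 156345 exons in all. A further 123 exons of that length lay in genes with 1 exon and 288 in genes below the minimum. For each library, the share of an exon is the percent of all reads of its gene that fell in that exon.

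Each library came from 1 animal, and the authors had set 1 further library aside as an outlier, per the labels. All animals had been induced to drink 4% ethanol and then had free access to it for 22 hours a day, 7 days a week, for over 12 months, so that the low drinkers are not an ethanol-free control. The labels call an animal a very heavy drinker (VHD, n = 6) when its mean daily intake was above 3 g/kg and at least 10% of days were above 4 g/kg. A heavy drinker (HD, n = 7) took at least 3 g/kg on at least 20% of days. A binge drinker (BD, n = 7) took at least 2 g/kg on at least 55% of days and reached a blood ethanol of 80 mg/dl at least once a year. All other animals were low drinkers (LD, n = 10). The animals belonged to cohort 4 (9 animals, on average 8.24 years old at induction and 9.98 at the end), cohort 5 (8 animals, 5.63 and 7.15 years), cohort 7a (8 animals, 4.18 and 5.7 years) and cohort 7b (5 animals, 5.69 and 7.18 years). Cohort 5 held no LD animal, and cohorts 4 and 7b held no VHD animal. The sample titles end in a library number, whose meaning the labels do not give, and libraries 1 to 8 held 4 HD, 2 VHD, 1 BD and 1 LD animal and none of cohort 4.

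In vertebrate genes most exons are short and carry coding sequence, while the last exon is often long because it holds the 3′ untranslated region. That region carries binding sites for microRNAs and RNA-binding proteins, which act on the stability, translation and placement of an mRNA, and neurons are known for long 3′ untranslated regions made by the use of distal polyadenylation sites. A smaller class of long exons is internal or coding, as in the microtubule-associated proteins, the giant protocadherins of the FAT family, or the titin gene. The exon names give no strand, so the members are described here as outermost (the first or last exon of a gene by coordinate) or internal, and which end of a transcript an outermost exon marks was not read from the files.

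Of the 1871 long exons, 1785 were outermost and 86 internal. Their median length was 4103 bases, with a range from 3001 to 23360. Within the gene, a long exon made up a median of 74.9% of the annotated exon bases and held a median of 61.0% of the reads (quartiles 43.5% and 78.4%, mean share over the 30 libraries). At least 50% of the reads of the gene fell in the long exon for 1226 members, which is 65.5% of them. The median share was 61.6% for outermost and 53.2% for internal members. Members of 7000 bases or more had a median share of 75.8%, against 55.9% for those from 3000 to under 4000 bases.

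The 3 members just inside the length limit were in TBC1D25 (3001 bases, 57.8% ± 4.25, SD over n = 30), POLR2M (3002 bases, 44.6% ± 4.35) and PKN2 (3004 bases, 30.4% ± 2.3). The 3 exons just outside it were in EP400 (2999 bases, 20.1% ± 1.89), ANGEL2 (2999 bases, 47.6% ± 3.88) and ARMCX3 (2998 bases, 80.3% ± 2.85). Nothing in these shares marks the limit as a natural boundary, and it is used as a definition only.

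**Figure D1:**
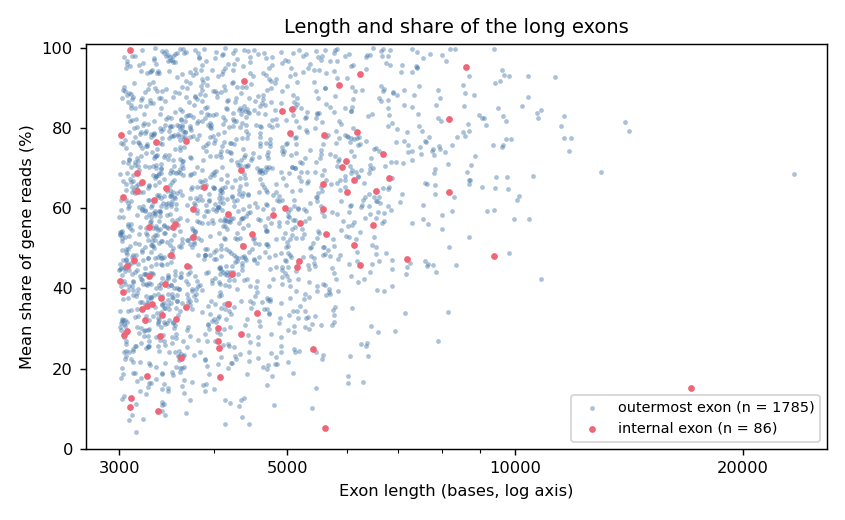
Each point is 1 of the 1871 long exons, with its length in bases on a log axis and its mean share of the reads of its gene over 30 libraries in percent. Outermost exons (n = 1785) are blue and internal exons (n = 86) red; shares run from 4.08% to 99.97%, and the 2 longest exons are those of SH3TC2 (23360 bases) and TTN (17106 bases).

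The longest member was the outermost exon of SH3TC2, a gene of peripheral nerve myelination, at chromosome 5, 146836139–146859498. It had 23360 bases, and its share was 68.5% ± 4.91 (SD, n = 30). The next was an internal exon of TTN, the titin gene known from striated muscle, with 17106 bases at chromosome 2b, 65542070–65559175, and a share of 15.1% ± 1.20 among 192 exons. A second internal TTN exon of 5609 bases held 5.29% ± 0.48. Outermost exons followed in KSR2, a scaffold of the Ras to MAP kinase pathway (14168 bases, 79.2% ± 2.40), GUCY1A2, a subunit of the nitric oxide receptor guanylyl cyclase (14000 bases, 81.6% ± 1.76), and TNRC6B, a scaffold of microRNA silencing (12978 bases, 69.1% ± 2.16). The remaining 5 of the 10 longest were in POU2F1, INO80D, DCUN1D5, PDK3 and LONRF2, with 11504 to 11865 bases and shares from 74.2% to 83.2%. In all 10 the long exon was covered less densely than the rest of the gene, with 0.266 (DCUN1D5) to 0.876 (LONRF2) times the reads per base.

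The highest shares were found in genes of 2 exons whose other exon is small. They were IRF2BPL (99.97% ± 0.09), ZBTB34 (99.97% ± 0.09), KCTD21 (99.90% ± 0.19), TRIM32, a ubiquitin ligase (99.84% ± 0.26), and C11orf87 (99.80% ± 0.16). At the other end, the long exon of TEP1, a telomerase-associated protein, held 4.08% ± 0.95 although it made up 28.8% of the exon bases. That of MPPED2 held 6.17% ± 1.87 with 61.8% of the bases, and that of the bicarbonate transporter gene SLC4A7 held 6.20% ± 1.0 with 53.2% of the bases. In FBN1, which encodes the matrix protein fibrillin, the share was 7.16% ± 1.25. MPPED2 and SLC4A7 therefore carried long annotated exons with 0.0404 and 0.0592 times the reads per base of the rest of the gene.

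Reads per base in the long exon, divided by reads per base in the rest of the gene, had a median of 0.561 over all members. The ratio was below 1 for 1567 members (83.8%). It differed by position, with a median of 0.547 for outermost and 1.02 for internal members, and it was below 1 for 85.5% and 47.7% of them. Lower density in outermost exons was not particular to the long ones. In exons of under 200 bases the medians were 0.343 for outermost and 1.47 for internal exons, and the outermost medians were between 0.533 and 0.555 in each length class from 500 bases on. These ratios are descriptions over exons, which are not replicates, and they rest on the annotated exon ends.

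**Figure D2:**
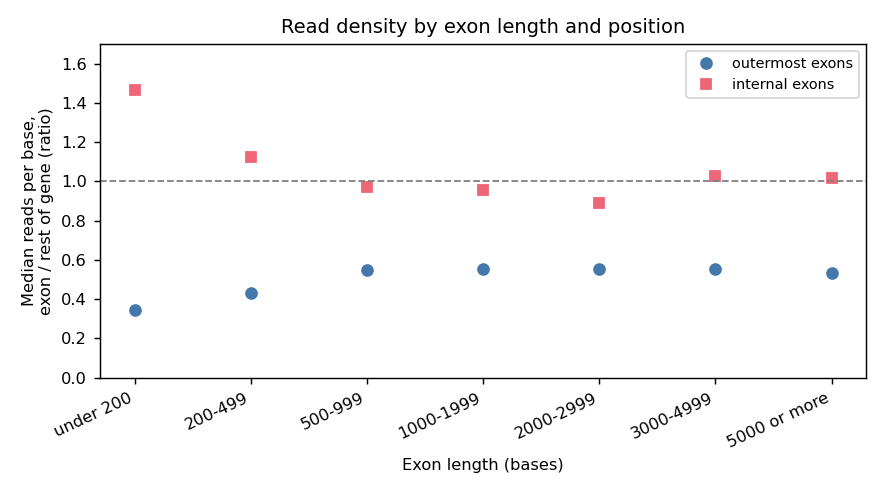
Points give the median ratio of reads per base in an exon to reads per base in the rest of its gene, for outermost exons (blue circles) and internal exons (red squares) in 7 length classes in bases. The dashed line marks a ratio of 1; outermost exons lie below it in every class, and internal exons of 3000 bases or more lie near it.

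The contrast could be read within single genes. In 22 genes a long internal exon stood beside a long outermost one, and in 18 of them the internal exon was the denser, although it was the longer one in only 9. The GTPase activator gene ARHGAP5 had an internal exon of 3885 bases with 65.3% ± 2.41 of the reads and an outermost exon of 5110 bases with 24.8% ± 2.75. In AKAP11, which anchors protein kinase A, the internal exon of 4492 bases held 53.5% ± 2.17 and the outermost one of 4119 bases held 26.0% ± 3.10. MAP1B, a microtubule-associated protein of axons and dendrites, had 55.7% ± 2.72 in its internal exon of 6502 bases and 35.2% ± 2.81 in its outermost exon of 4482 bases. By density the order was the other way in FAT1, PLEC and ZFHX4, and in FAT3 for the one of its 2 long outermost exons with more reads. In PLEC, the gene of the cytoskeletal linker plectin, the internal exon of 3381 bases held 9.45% ± 1.88 and the adjoining outermost exon of 7279 bases held 46.5% ± 1.39.

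Among 20 neuronal and regulatory genes listed for description, 12 held a member. MAP1A, another microtubule-associated protein, had an internal exon of 8188 bases with 82.2% ± 0.77 of its reads in 30 libraries. CREB1, an activity-regulated transcription factor, had 69.0% ± 4.17 in 8650 bases, and MAP2, a dendritic marker, 60.9% ± 2.78 in 3911 bases. The NMDA receptor subunit genes GRIN2A and GRIN2B had 57.3% ± 2.83 in 9971 bases and 39.0% ± 1.75 in 3166 bases. NR3C1, the glucocorticoid receptor gene, had 50.8% ± 2.20 in 4096 bases, and CAMK2A, a kinase abundant at excitatory synapses, 42.2% ± 1.99 in 3217 bases. DICER1, the microRNA-processing nuclease, had 26.7% ± 2.92 in 4463 bases, and ANK3, an organiser of the axon initial segment, 19.1% ± 1.88 in 3526 bases. The other 8 listed genes held no member, among them ANK2, BSN, PCLO, AHNAK, KCNMA1, ELAVL4 and QKI. For AHNAK, ELAVL4 and KCNMA1, the longest exon of the table had 350, 1027 and 2627 bases.

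Gene groups, formed from the gene symbols, differed in how far the long exon made up the gene. The 148 members in zinc finger genes, most of which encode DNA-binding proteins, had the highest median share of the 10 groups, at 82.1%, in genes with a median of 5 exons. Ion channel genes (30 members) followed with 73.9%. Transmitter receptors (16 members, 60.8%), ubiquitin pathway genes (60 members, 60.1%), membrane transporters (45 members, 59.8%), kinases and phosphatases (49 members, 54.5%) and RNA-binding and microRNA pathway genes (36 members, 51.5%) were intermediate. Adhesion and guidance genes (50 members) had 40.3%, cytoskeletal and scaffold genes (26 members) 36.4%, and chromatin regulators (37 members) 35.6%. The last 3 groups had medians of 17, 16.5 and 17 exons. The other 1374 members were in none of these groups.

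Between animals, the share of a member varied with a median SD of 2.79 percentage points (n = 30), against 1.57 points from the counting of reads alone, and the observed SD was above the counting SD for 1795 members. The median member had 412.5 reads per library. Depth, as recovered reads over all measured exons, ran from 4.39 to 13.99 M per library (M being 10 to the power of 6) and was under 6 M in 6 of them. The gene values held 3 of 4 listed markers of neurons, 1 of 2 of precursors, 2 of 3 of endothelium and 2 of 3 of choroid plexus and blood. All listed markers of inhibitory neurons, astrocytes, oligodendrocytes, microglia and mural cells were held. Each marker held was at 10 or more in all libraries, except those of choroid plexus and blood, which summed to 2.57 to 45.2 per library. In whole tissue, a change in the mix of cells and a change of exon use within cells cannot be told apart.

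Long exons took 15% to 17.5% of the reads of a library, with a mean of 16.5% ± 0.69 (SD, n = 30). The category means were 16.4% ± 0.60 for LD, 16.2% ± 0.84 for BD, 16.7% ± 0.48 for HD and 16.7% ± 0.88 for VHD. The category means differed by less than the SD over all libraries. By cohort it was 16.4% ± 0.71 in cohort 4, 16.2% ± 0.79 in cohort 5, 16.9% ± 0.57 in cohort 7a and 16.4% ± 0.38 in cohort 7b, with the difference between cohorts 7a and 5 slightly above that SD. The 3 lowest libraries were VHD replicate 4 (15%), BD replicate 6 (15.1%) and LD replicate 3 (15.2%), each of another category. The median share over members ran from 57.7% to 63.4%, and the same 3 libraries were the lowest, at 57.7%, 58.1% and 58.2%. Their internal members had median shares of 53.0%, 54.2% and 53.7%, above the median of 52.3% over all libraries. Libraries under 6 M reads had a mean of 16.1% ± 0.81 (n = 6) against 16.6% ± 0.65 (n = 24), and the part of depth in these values was not tested.

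**Figure D3:**
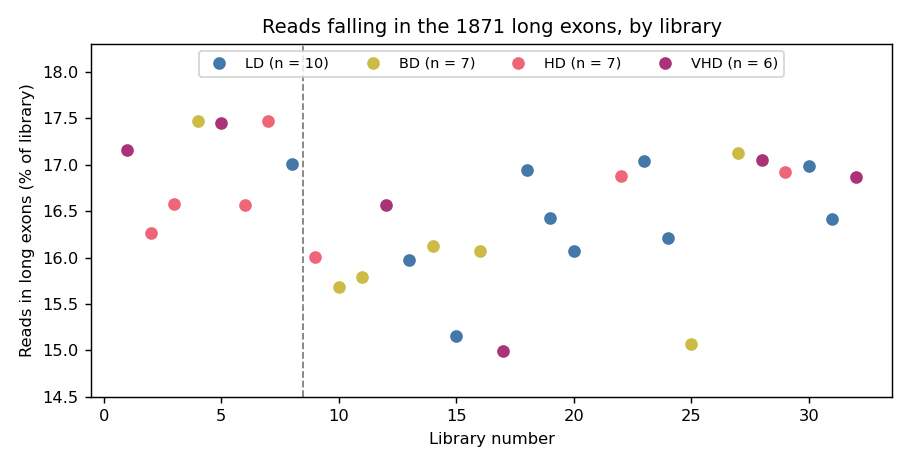
Each point is 1 library, with its library number on the x axis and the percent of its reads that fell in the 1871 long exons on the y axis, coloured by drinking category. The axis does not start at 0; libraries 1 to 8, left of the dashed line, lie between 16.3% and 17.5%, and the other 22 between 15% and 17.1%.

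No long exon passed the test between drinking categories. The question was whether the part of a gene's reads in its long exon goes with ethanol intake. Each exon's log2 odds (reads in the exon against reads in the rest of the gene) were fitted by limma on category and cohort, and an exon was called at an adjusted p under 0.05 over 110931 exons. Of the 1871 members, 0 were called in VHD against LD, HD against LD, BD against LD, over all categories or over the ordered trend, where the percent called among all exons was also 0.0%. At an unadjusted p under 0.05 the members numbered 84 in VHD against LD (4.49%, all exons 3.65%), 121 in HD (6.47%, all exons 7.53%), 95 in BD (5.08%, all exons 6.19%), 113 over all categories (6.04%, all exons 5.26%) and 97 over the trend (5.18%, all exons 4.64%). The edgeR exon test on the recovered reads also called 0 members in each of these. At an unadjusted p under 0.05 it had 51 members for VHD (2.73%, all exons 4.1%), 70 for HD (3.74%, all exons 6.84%) and 35 for BD (1.87%, all exons 4.49%).

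The long exons leaned one way as a body, but how far depended on the cohort term. In VHD against LD, 1283 members (68.6%) had a difference above 0, against 49.0% of all exons, and the median difference was 0.0633 on the log2 odds scale against -0.0046 over all exons. Outermost members were above 0 in 1259 of 1785 cases, and internal members in 24 of 86. The same direction was found in 66.3% of the exons from 2000 to under 3000 bases, 58.0% of those from 1000 to under 2000 and 57.7% of all outermost exons, so that it was not particular to the long ones. In HD against LD, 57.7% were above 0 (median 0.0256), and in BD against LD 34.2% were above 0 (median -0.0456), with 50.3% and 50.5% of all exons. In BD 35.8% of the exons from 2000 to under 3000 bases and 40.2% of those from 1000 to under 2000 were above 0. Among all outermost exons it was 52.3%, so that in BD outermost exons as a whole did not share the direction of the long ones. Without the cohort term, VHD had 50.3% of members above 0 (median 0.0012) and HD had 44.4% (median -0.0179), while BD had 31.5%. Within cohort 7a alone, with 2 VHD and 3 LD animals, VHD had 67.2% above 0, but BD, with 1 animal there, had 59.3%. Within cohort 4 alone, with 4 BD, 4 LD and 1 HD animal, BD had 33.7% above 0 (median -0.0519) and HD 63.2%. The HD median was 0.0081 without LD replicate 3, and the BD median was -0.0296 without LD replicate 7, -0.0102 without the 6 libraries under 6 M reads and -0.0255 with a term for depth. Members of 1 library share its quality and makeup, so that these counts describe the libraries and carry no p. The 3 contrasts share the LD libraries. The trend had 66.2% of members above 0 (all exons 49.1%) and, without the cohort term, 51.1%.

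**Figure D4:**
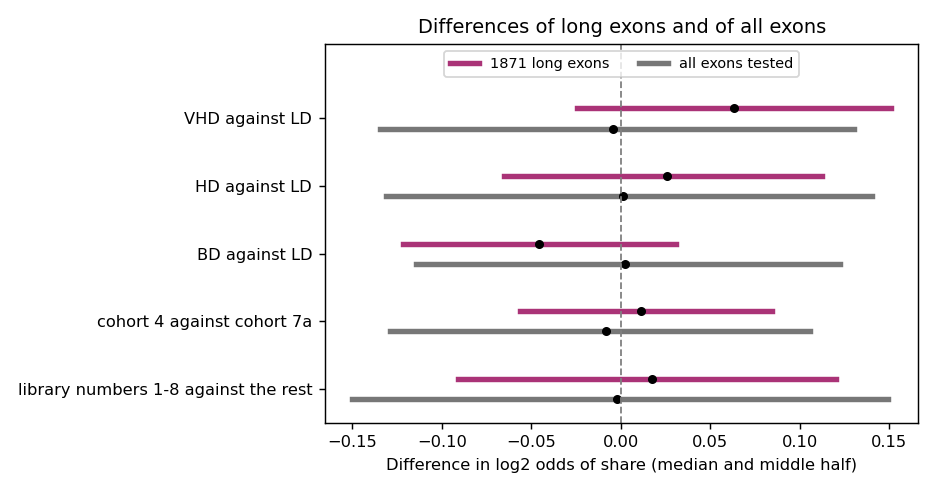
Bars span the quartiles (lower to upper), and black points mark the median, of the differences in log2 odds of an exon's share for the 1871 long exons (purple) and all 110931 exons tested (grey), in 5 comparisons fitted by limma. The medians of the long exons are 0.0633 for VHD, 0.0256 for HD and -0.0456 for BD against LD, and each quartile range of the long exons overlaps that of all exons.

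The 5 members with the smallest p for a higher share in VHD were ERMN, DIXDC1, GFRA1, DCLK1 and LIN54, each with an adjusted p of 1.0 (limma). ERMN encodes ermin, a cytoskeletal protein of myelinating oligodendrocytes, and its exon of 3138 bases lies at chromosome 2b, 43947340–43950477. Its lowest, median and highest shares were 75%, 78.7% and 81.4% in LD, 78.9%, 81.1% and 85.2% in VHD, 79.0%, 81.2% and 87.3% in BD, and 76.6%, 79.4% and 80.5% in HD. The ranges overlap in all 4 categories. Summed oligodendrocyte markers had medians of 3860 in LD and 4189 in VHD, and their part in this difference was not tested. The fitted difference was 0.46 ± 0.13 (SE) for VHD and 0.36 ± 0.10 for BD, where it was 1 of the 2 members with the smallest p for a higher share (adjusted p = 0.80). GFRA1, a co-receptor for the growth factor GDNF, had an exon of 7708 bases at chromosome 10, 111785176–111792883, with 68.8%, 77.0% and 79.9% in LD and 76.3%, 79.1% and 85.3% in VHD (0.61 ± 0.18).

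DCLK1, a microtubule-binding kinase of the doublecortin family, had 49.8%, 51.6% and 53.9% in LD and 50.0%, 54.4% and 58.2% in VHD (chromosome 13, 15270849–15276894, 6046 bases, 0.26 ± 0.08). DIXDC1, a regulator of Wnt signalling, had 46.9%, 50.6% and 54.2% in LD and 47.6%, 53.4% and 59.2% in VHD (chromosome 11, 104139471–104143103, 3633 bases, 0.33 ± 0.09). LIN54, a subunit of a cell cycle repressor complex, had 30.6%, 36.9% and 39.8% in LD and 30.7%, 41.3% and 49.3% in VHD (chromosome 4, 51338994–51342269, 3276 bases, 0.49 ± 0.14). All 3 overlapped between the categories. In each the highest VHD animal was above the LD range, and it was the same animal, VHD replicate 2, which is in libraries 1 to 8.

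Lower shares in VHD had their smallest p in RBM8A, TAP2, GPR107, ZFPM2 and PKD1, again with an adjusted p of 1.0. GPR107 encodes a membrane protein of the Golgi. Its exon of 5087 bases at chromosome 9, 102551492–102556578, had 56.2%, 59.2% and 61.6% in LD, 52.6%, 55.2% and 57.4% in VHD, 52.5%, 55.3% and 58.1% in HD, and 53.8%, 57.8% and 60.7% in BD. The fitted difference was -0.20 ± 0.07 for VHD and -0.20 ± 0.06 for HD (adjusted p = 0.61). RBM8A, a core protein of the exon junction complex, had 64.7%, 72.8% and 78.4% in LD and 59.1%, 70.2% and 71.9% in VHD (chromosome 1, 123021262–123024826, 3565 bases, -0.51 ± 0.17). It is also among the exons called by library number, described later.

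ZFPM2, a cofactor of GATA transcription factors, had 68.0%, 72.0% and 76.4% in LD, 63.6%, 67.8% and 72.3% in VHD, and 57.4%, 67.2% and 72.8% in HD (chromosome 8, 104386332–104389831, 3500 bases, -0.38 ± 0.16 for VHD and -0.46 ± 0.13 for HD, adjusted p = 1.0 and 0.59). TAP2, which carries peptides to MHC class I molecules, had 11.3%, 19.4% and 23.9% in LD and 10.1%, 12.2% and 18.4% in VHD, on a median of 35.5 reads in LD (chromosome 6, 33543053–33546685, 3633 bases, -0.66 ± 0.24). PKD1 encodes polycystin-1 and has near-identical copies in some primates. Whether such copies affect its reads here was not tested. It had an internal exon at chromosome 16, 2113581–2117200, 3620 bases. Its shares were 22.5%, 23.3% and 24.8% in LD and 20.6%, 21.5% and 23.4% in VHD (-0.15 ± 0.06). Each of these 3 overlapped between LD and VHD.

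Over the ordered trend from LD through BD and HD to VHD, the smallest p were in GFRA1 (0.21 ± 0.06 per step), URB1 (0.19 ± 0.05) and DCLK1 (0.08 ± 0.02) for a higher share, and in RBM8A (-0.18 ± 0.06), GPR107 (-0.08 ± 0.02) and ZFPM2 (-0.15 ± 0.05) for a lower one, each with an adjusted p of 1.0 (limma, n = 30). URB1, a ribosome biogenesis factor, shares its exon of 4381 bases (chromosome 7, 14282972–14287352) in part with an exon of MRAP, so that its reads are uncertain. It had 8.59%, 11.8% and 13.8% in LD and 10.6%, 13.7% and 17.4% in HD (0.53 ± 0.14, adjusted p = 0.57). The other member with the smallest p for a higher share in HD was SLC7A14, a lysosomal membrane transporter, with 68.8%, 72.4% and 74.1% in LD and 72.3%, 76.1% and 78.8% in HD (chromosome 3, 74915274–74923101, 7828 bases, 0.34 ± 0.09, adjusted p = 0.57). It is also called by library number, and 4 of the 7 HD animals are in libraries 1 to 8.

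In BD, the amino acid transporter gene SLC7A1 had 59.1%, 61.9% and 64.6% against 51.9%, 58.7% and 62.4% in LD (chromosome 13, 8844161–8849333, 5173 bases, 0.21 ± 0.07, adjusted p = 0.80). SYNCRIP, an RNA-binding protein of dendritic mRNA granules, had 41.6%, 48.4% and 52.2% in BD against 48.9%, 53.4% and 58.5% in LD (chromosome 6, 83671358–83676500, 5143 bases, -0.37 ± 0.10, adjusted p = 0.80). KIAA1456 had 70.9%, 78.4% and 84.1% against 78.5%, 83.8% and 93.7% (chromosome 8, 11903862–11907095, 3234 bases, -0.67 ± 0.19, adjusted p = 0.80). The groups overlapped in all 3.

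Of the listed neuronal genes, GRIN2A had the smallest unadjusted p in VHD against LD, at 0.0154 with an adjusted p of 1.0 (limma). Its share was 50.8%, 56.0% and 58.8% in LD and 55.3%, 60.0% and 61.8% in VHD, a fitted difference of 0.24 ± 0.09. In HD it had 56.3%, 59.1% and 60.2%, and in BD 52.6%, 55.2% and 61.0%. In libraries 1 to 8 the GRIN2A share was 58.5%, 60.0% and 61.8%, against 50.8%, 56.0% and 60.2% in the rest (adjusted p = 0.0624). GRIN2B had medians of 38.8% in LD and 37.6% in VHD (unadjusted p = 0.397). CREB1 had 63.3%, 68.2% and 72.3% in LD and 69.2%, 71.0% and 74.9% in HD (unadjusted p = 0.00791). None of the 13 listed members was called in any comparison.

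By gene group, the members above 0 in VHD against LD were 28 of 36 in RNA-binding and microRNA pathway genes, 34 of 45 in membrane transporters, 12 of 16 in transmitter receptors, 44 of 60 in ubiquitin pathway genes, 36 of 50 in adhesion and guidance genes and 35 of 49 in kinases and phosphatases. Ion channels had 19 of 30, zinc finger genes 94 of 148, cytoskeletal and scaffold genes 15 of 26, and chromatin regulators 21 of 37. These counts stand beside 1283 of 1871 for all members, and 0 members of any group were called. In BD against LD the same groups had 6 of 36, 22 of 45, 5 of 16, 13 of 60, 22 of 50, 19 of 49, 10 of 30, 65 of 148, 9 of 26 and 17 of 37 above 0, beside 639 of 1871.

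Cohorts, which differ in age, likewise gave 0 called members (0.0% of all exons). At an unadjusted p under 0.05 there were 121 members over all cohorts (6.47%, all exons 4.25%) and 98 in cohort 4, the oldest, against cohort 7a, the youngest (5.24%, all exons 5.27%). In that contrast 54.4% of members were above 0, against 48.0% of all exons. The median of 0.0114 moved with the processing in both directions. It was -0.0246 without the category term, 0.0887 (77.3% above 0) without the 6 libraries under 6 M reads and 0.0502 (68.9%) with array weights. It was between -0.0061 (without LD replicate 7) and 0.0379 (without LD replicate 3) when each library was left out.

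The members named for cohort 4 against cohort 7a each had an adjusted p of 0.92 (limma). SLCO1A2, an organic anion transporter, had 32.8%, 35.5% and 40.4% in cohort 4 and 25%, 29.8% and 35.5% in cohort 7a (chromosome 12, 22125370–22130521, 5152 bases, 0.45 ± 0.11). SYT7, a calcium sensor of vesicle fusion, had 56.4%, 60.4% and 63.0% against 55.2%, 57.2% and 59.9% (chromosome 11, 12616148–12621178, 5031 bases, 0.21 ± 0.06). RHOU, an atypical small GTPase, had 91.3%, 96.1% and 98.3% against 89.7%, 92.8% and 94.5% (chromosome 1, 204400134–204403522, 3389 bases, 0.88 ± 0.25). SLC7A1, described for BD, had 59.1%, 61.1% and 64.6% against 51.9%, 58.4% and 62.6% (0.24 ± 0.07). In each of them the 2 cohorts overlapped.

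Among those lower in cohort 4, ITGA2, an integrin subunit that binds collagen, had 59.1%, 66.7% and 74.5% in cohort 4 and 71.4%, 74.4% and 83.7% in cohort 7a (chromosome 5, 53864772–53869080, 4309 bases, -0.56 ± 0.18). ZNF629, a zinc finger gene, had 94.0%, 95.7% and 96.2% against 94.6%, 96.5% and 98.7% (chromosome 16, 28563562–28569676, 6115 bases, -0.67 ± 0.20). FAM129A had 50.7%, 58.1% and 64.2% against 54.5%, 65.7% and 70.9% (chromosome 1, 181937867–181943040, 5174 bases, -0.52 ± 0.16). TMEM218 had 53.5%, 59.6% and 63.9% against 55.7%, 66.8% and 79.4% (chromosome 11, 117046005–117049394, 3390 bases, -0.53 ± 0.19). The last 2 had few reads, with medians of 48.5 and 53.0 in the LD libraries, which lie in cohorts 4, 7a and 7b.

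Library number was the one division with called members. In libraries 1 to 8 (n = 8) against the rest (n = 22), with category and cohort in the fit, 115 members in 112 genes were called (6.15%), where the percent called among all exons was 4.82% (5349 of 110931). The share was higher in 76 of them (all exons, 2.51% called higher) and lower in 39 (all exons, 2.31% called lower). At an unadjusted p under 0.05 there were 418 members (22.3%, all exons 17.9%). A difference above 0 was found in 54.9% of members (all exons 49.7%) with a median of 0.0172, which was 0.0774 with a term for depth and -0.0039 without BD replicate 1. The members' percentage was thus close to that of all exons, and below that of all outermost exons, of which 10.3% were called. By length class the percent called was 4.31% under 200 bases, 6.21%, 7.56% and 7.35% in the classes up to 2000 bases, 6.12% from 2000, 6.40% from 3000 and 5.52% from 5000 bases on. Among long internal exons 7 of 86 were called (8.14%), against 3.82% of all internal exons. Libraries 1 to 8 were shallower (mean 7.78 M against 9.59 M reads). Their median summed markers were lower for mural cells (1107 against 1421), microglia (791 against 895) and inhibitory neurons (4678 against 4858). They were also lower for astrocytes (75116 against 77093) and oligodendrocytes (3613 against 3880). Medians were higher for neurons (37630 against 34224), endothelium (591 against 513) and precursors (1 gene, 1065 against 1053). In each of these marker sets the ranges of the 2 sets of libraries overlapped. With a term for depth in the fit, 80 of the 115 were called again, with median differences of 0.30 for the higher and -0.31 for the lower ones. The part of the markers in the result was not tested.

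The called differences were modest in size. Higher shares differed by 0.15 to 0.66 on the log2 odds scale, with a median of 3.83 percentage points, and lower shares by -0.13 to -0.84, with a median of -4.13 points. In 54 of the 76 higher members all 8 libraries were above the median of the rest, and in 33 of the 39 lower members all 8 were below it. The 2 sets of libraries did not overlap at all in 5 members (0.267%, all exons 0.366%), which were IQSEC1, DDN, TOM1L2, DDA1 and the longer exon of ARHGAP35. Within cohort 5, cohort 7a and cohort 7b, fits without a category term called 1, 39 and 2 members. In cohort 7a all 3 LD animals were in the rest, so that library set and category cannot be fully told apart there. The count was 67 without HD replicate 6, 71 without BD replicate 1 and 76 without LD replicate 1. The edgeR exon test called 81 members (4.33%), 75 of them among the 115, and 5.53% of all exons, so that the members' percentage was below that of all exons there and above it in limma.

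TOM1L2, an adaptor of endosomal sorting, had the smallest p of all members. Its exon of 4235 bases at chromosome 17, 17864477–17868711, had 53.9%, 56.9% and 59.4% (lowest, median and highest) in libraries 1 to 8 and 62.2%, 65.4% and 69.0% in the rest, a difference of -0.49 ± 0.06 (adjusted p = 1.68e-06). DNAJC5, the cysteine string protein that chaperones synaptic vesicle fusion, had 78.5%, 79.4% and 81.7% against 81.6%, 84.2% and 86.3% (chromosome 15, 351255–355664, 4410 bases, -0.44 ± 0.06, adjusted p = 1.53e-05). In TOM1L2 the 2 sets were apart, and in DNAJC5 they overlapped at their edges only.

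DDA1, a component of cullin 4 ubiquitin ligases, had 60.7%, 65.1% and 68.9% against 69.8%, 74.5% and 80.1% (chromosome 19, 16971502–16975236, 3735 bases, -0.68 ± 0.10, adjusted p = 2.85e-05). Its exon overlaps one of ANO8, and its reads are uncertain. DDN, the gene of the postsynaptic protein dendrin, had 95.9%, 96.5% and 96.7% against 97.0%, 97.3% and 97.9% (chromosome 12, 47187034–47190540, 3507 bases, -0.44 ± 0.07, adjusted p = 0.000168). It has 2 exons, so that the fall of one is the rise of the other. The libraries did not overlap in either gene, although in DDN the medians were less than 1 percentage point apart.

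ARHGAP35, which encodes a GTPase-activating protein, has 2 long exons at its ends that together held most of its reads. The one of 4736 bases at chromosome 19, 41913993–41918728, had 36.3%, 36.8% and 38.1% in libraries 1 to 8 and 38.8%, 41.7% and 44.8% in the rest (-0.30 ± 0.05, adjusted p = 0.000126). The other, of 3688 bases at 41826452–41830139, had 52.6%, 55.5% and 57.9% against 47.9%, 50.6% and 53.8% (0.25 ± 0.05, adjusted p = 0.00218). Since both shares are parts of 1 total, a lower share of one raises the other. PLEC also had both long exons called in opposite directions. Its medians in libraries 1 to 8 against the rest were 11.2% against 8.80% for the internal and 44.9% against 47.1% for the outermost exon.

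Among members with a higher share in libraries 1 to 8, IQSEC1, an activator of the small GTPase Arf6 at synapses, had 37.8%, 40.4% and 41.4% against 32.4%, 34.9% and 37.4% (chromosome 3, 144600881–144605388, 4508 bases, 0.31 ± 0.05, adjusted p = 0.000227). ARHGAP26, which also encodes a GTPase-activating protein, had 36.0%, 38.8% and 41.1% against 30.3%, 34.7% and 39.7% (chromosome 5, 140786920–140790845, 3926 bases, 0.32 ± 0.06, adjusted p = 0.000423). TTC28 had 31.6%, 35.1% and 38.7% against 25.7%, 30.8% and 34.3% (chromosome 15, 69723490–69729262, 5773 bases, 0.36 ± 0.06, adjusted p = 0.000535). IQSEC1 was apart between the sets, and the other two overlapped.

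MEST, an imprinted gene, had 68.4%, 69.7% and 75% against 61.7%, 65.3% and 69.8% (chromosome 7, 156194371–156199998, 5628 bases, 0.37 ± 0.07, adjusted p = 0.000544), on an exon that overlaps one of COPG2, so that its reads are uncertain. PLXDC1, a receptor known from tumour endothelium, had 38.8%, 43.1% and 51.1% against 31.1%, 35.1% and 45.6% (chromosome 17, 46855626–46860326, 4701 bases, 0.51 ± 0.09, adjusted p = 0.000616). In both the ranges overlapped.

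**Figure D5:**
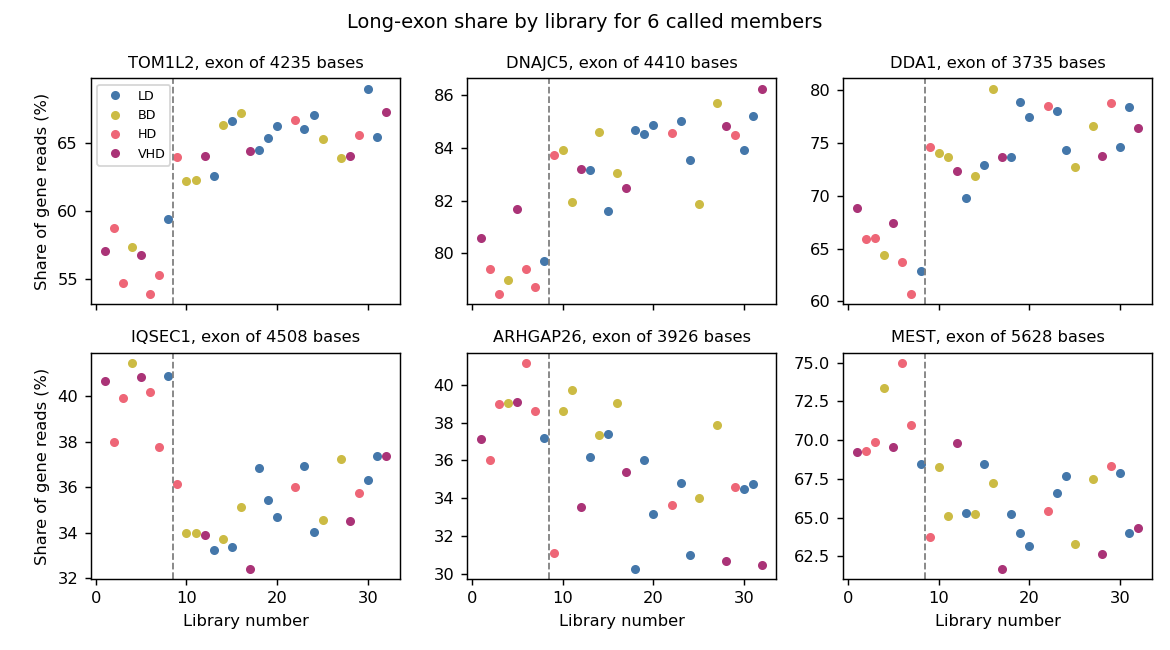
Each panel shows 1 long exon called between libraries 1 to 8 (left of the dashed line) and the rest, with the library number on the x axis, its share of the reads of the gene in percent on the y axis (not starting at 0), and points coloured by drinking category. TOM1L2, DNAJC5 and DDA1 are lower in libraries 1 to 8 (medians 56.9%, 79.4% and 65.1%) and IQSEC1, ARHGAP26 and MEST higher (medians 40.4%, 38.8% and 69.7%).

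By gene group, 7 of the 50 members in adhesion and guidance genes were called, all with a higher share. All group counts stand beside 115 of 1871 members called (6.15%) and 2.51% of all exons called higher and 2.31% lower, and the small groups give no more than descriptions. The 7 called adhesion and guidance members were in FAT2, SEMA5A, NLGN4X, CNTN2, UNC5D, NCAM1 and CNTNAP2. NLGN4X, a synaptic neuroligin, had 39.9%, 45.6% and 48.8% in libraries 1 to 8 against 34.0%, 38.1% and 43.7%, and SEMA5A, a guidance cue, had 61.8%, 62.9% and 64.9% against 48.6%, 56.7% and 62.8%. All 5 called members of the 45 in membrane transporters were higher too (SLCO3A1, SLC7A2, SLC7A14, SLC7A1 and ATP2B2). Zinc finger genes had 7 higher and 2 lower of 148, chromatin regulators 3 higher (among them KDM5A and ASH1L) and 2 lower (among them HDAC2) of 37, and cytoskeletal and scaffold genes 3 higher (PLEC, DLGAP1, APC) and 1 lower (PLEC) of 26. RNA-binding and microRNA pathway genes had the splicing factor gene SRSF1 and the neuronal ELAVL3 higher and RBM8A lower, of 36. Kinases and phosphatases had 2 higher and 2 lower of 49, and the ubiquitin pathway 2 higher and 2 lower of 60. The receptor subunit gene CHRNA4 was the one called of 16 transmitter receptors, and was lower, while 14 of the 16 had a difference above 0, and the sodium channel subunit gene SCN3B the one of 30 ion channels, and was higher.

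Reads of the genes that hold long exons moved in part with library number as well. These genes took 29.7% ± 0.46 of the reads in libraries 1 to 8 (n = 8) and 28.6% ± 0.56 in the rest (n = 22), and the long exons themselves 17% ± 0.47 and 16.3% ± 0.67. The limma fit on gene level called 278 of the 1841 genes (15.1%), 224 higher and 54 lower, where the percent called among all 12935 genes was 15.5%, with 823 higher (6.36%) and 1187 lower (9.18%). At an unadjusted p under 0.05 there were 548 of them (all genes 28.9%). A difference above 0 was found in 73.5% of them, against 52.3% of all genes, and the median difference was 0.0725 against 0.0116 on the log2 scale. Of the 115 called members, 24 had a called gene (all genes with long exons, 15.1% called), 12 in the same and 12 in the opposite direction. TOM1L2 and DNAJC5 were lower in share and in gene level (-0.25 and -0.19 on the log2 scale for the gene).

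The gene level was fitted for VHD against LD, the trend, and cohort 4 against cohort 7a, and not for the other contrasts of categories and cohorts. In each of these fits 0 genes were called among those with long exons (0.0% of all genes). At an unadjusted p under 0.05 there were 68 in VHD against LD (3.69%, all genes 3.5%), 135 over the trend (7.33%, all genes 6.18%) and 188 in cohort 4 against cohort 7a (10.2%, all genes 9.15%). In VHD against LD 64.1% of the 1841 genes had a difference above 0, against 49.9% of all genes, over the trend 65.7% against 49.9%, and in cohort 4 against cohort 7a 37.3% against 51.8%. Without BD replicate 1, 4 of them (0.217%) were called in cohort 4 against cohort 7a, and 7 of all 12935 genes (0.0541%).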

How the data were processed

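Total RNA was made into stranded, ribosomal RNA-depleted libraries, per the labels' protocols, and STAR 2.3.0e and edgeR are named in the submitters' processing notes. The deposited tables hold a signal per exon and per gene, which the authors scaled by upper quartile, per the labels. For the genome build and the counting program, the sources used here give nothing, and coordinates are those of the exon names. Low values were whole multiples of 1 step per library, which returned whole reads (tolerance 0.01) for 100.0% of values, and the exon reads of each of 15521 genes summed to its gene reads. Of the 1841 gene symbols, 1726 were found in the T2T-MMU8v2.0 RefSeq table and 38 by an older symbol.

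Shares were tested with limma 3.58.1 (R 4.3.3, trend in the prior variance) on log2 of (exon + 1) over (rest of gene + 1), for exons at 5 or more in at least 6 libraries, in all 30 libraries with category and cohort as terms, and gene levels on log2 of (value + 1) for genes at 10 or more in at least 6. Benjamini-Hochberg adjustment ran over all exons or genes. The edgeR 4.0.16 exon test was an alternative, whose estimate is the log2 change of an exon relative to its gene and not log2 odds. Only the limma fits of shares for VHD against LD and for the division by library number were tested on simulated data.

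The rule for naming took the members of smallest p per direction (5 each by VHD and by library number, 4 by cohort, 3 by trend, 2 each by HD and BD), the 10 longest, the 5 highest and 5 lowest shares, and a list of 20 genes. Others were named after their values were seen. The members, the division by library number and the lists were chosen with earlier results of these data known. Replicates are separate animals, numbered in the order of deposit. With recovered reads, the counting SD of a share is binomial and covers counting error only. Some listed or called genes are not reported here.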

Additional observations from a re-analysis of the deposited data

Results flagged for a closer look

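Of 118 groups of 4 to 10 libraries checked with Dixon's test, 4 held a library far from the others, and chance alone gives about 1 in 20. In VHD the lowest percent of reads in long exons was 15%, with the next library at 16.6% (n = 6). The same library, VHD replicate 4, had the lowest median share of long exons in VHD, 57.7% against 61.4% in the next. The highest TAP2 share in VHD was 18.4%, with the next at 13.1%, on an exon of few reads. The lowest ITGA2 share in cohort 5 was 52.8%, with the next at 66.3% (n = 8).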

How the results depend on the processing

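For libraries 1 to 8 against the rest, 115 members were called. This count became 216 with a limit of 2000 bases and 30 with 5000 (other exons counted). It became 197 without category and cohort terms, and 1, 39 and 2 within cohorts 5, 7a and 7b (fewer samples, no category term). It was 67 to 132 when each library was left out. The cause was not tested for the fit without terms. Of the 115, 75 were called again by edgeR, 80 with a depth term, 88 with 1 variance per exon, 103 without terms, 103 without cohort 4 and 89 without the libraries under 6 M reads. The 278 called host genes became 181 to 334 when each library was left out (181 without LD replicate 1), and the 0 for cohort 4 against cohort 7a became 0 to 4. For drinking categories and cohorts, every alternative run called 0 members. The percent of reads in long exons, 16.5%, was 23.9% with a limit of 2000 bases and 6.84% with 5000, and 16.4% to 16.5% when each library was left out. Alternatives without cohort 4, without libraries under 6 M reads and within single cohorts by library number were chosen after seeing the data. Shares of members with few reads are limited by depth. No paired analysis was possible because the replicate numbers only name animals in the order of deposit.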
